A study of Homo sapiens with 6 samples.

Results

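HLA class I molecules and the machinery that loads them with peptide were followed in WM164, a line of human melanoma cells that carries mutant BRAF. The members were every probe set of the array whose gene symbol field is, or contains, HLA-B, HLA-C, HLA-E, HLA-F, HLA-G, B2M, TAP1, TAP2 or TAPBP. This gave 16 of 33297 probe sets, covering 7 of the 9 genes, while HLA-E and HLA-G were not analysed here. The treated samples, named IDTC colonies in the labels and described there as resistant, had been kept for 60 days in 500 nM PLX4032 (vemurafenib), a drug that blocks the mutant BRAF kinase. They were set against parent cells of the same line, labelled as untreated controls and, per the series title, given a matching amount of the solvent DMSO. Each group had 3 samples on 3 one-colour Affymetrix whole-transcript arrays, and all samples come from 1 cell line. Values are log2 expression values per probe set, so a difference of 1 is a 2-fold difference. With 3 arrays a group, the precision is limited by their number and by the spread among them.

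A class I molecule consists of a heavy chain, encoded by an HLA gene, and the light chain beta-2-microglobulin, encoded by B2M. Peptides cut by the proteasome in the cytosol are carried into the endoplasmic reticulum by a transporter that TAP1 and TAP2 form together. There tapasin, the product of TAPBP, holds an empty class I molecule next to the transporter until a peptide is bound. Loaded molecules travel to the cell surface, where CD8 T cells read the peptide and natural killer cells sense whether class I is present. Low class I or low transporter expression is a known way for melanoma cells to avoid CD8 T cells.

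Of the 16 probe sets, 13 were higher in colonies and none was lower (limma, adjusted p under 0.05 over all 33297 probe sets). By the same test 29.7% of all probe sets differed, 14.4% being higher and 15.3% lower in colonies. All 16 members were brighter than the median probe set (6.31), and calls were more common in that range: 51.1% of such probe sets differed, 24.1% being higher and 27% lower. The same 13 members had every colony array above every parent array, and the groups were apart in 1 direction or the other for 40.6% of all probe sets. The median difference of the members was 0.36 on the log2 scale, against 0.01 over all probe sets. TAPBP rose most, B2M next, then TAP1 and the HLA probe sets by smaller amounts, whereas TAP2 did not pass the test. In these bulk RNA samples, more cells expressing a gene and more RNA per cell cannot be told apart.

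The 16 probe sets are not 16 independent measurements. Apart from the single B2M probe set, each symbol field was carried by 3 probe sets that shared listed transcripts, and the 3 TAP1 probe sets had identical values on every array. The members thus held 14 distinct profiles of 6 symbol fields. No probe set carried a single HLA symbol: 3 listed HLA-C with HLA-B and 3 listed HLA-F with HLA-B. Among the transcripts listed for them, the RefSeq ones of the HLA-F with HLA-B probe sets were all HLA-F. For the HLA-C with HLA-B probe sets they were HLA-B in 8124911 and 8178498, and both genes in 8179731. How far each probe set reads each HLA gene was not tested.

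The upstream sequences of the genes that set the pattern are shown because class I, B2M and transporter genes are known to be switched on together by interferon through binding sites for interferon regulatory factors (IRF). They are the 250 bases before the annotated start in RefSeq (GRCh38.p14), read 5′ to 3′ on the gene's strand. The stretches are chr15:44711267-44711516, plus strand for B2M, chr6:33314079-33314328, minus strand for TAPBP, chr6:32853705-32853954, minus strand for TAP1, chr6:32838740-32838989, minus strand for TAP2, chr6:31357180-31357429, minus strand for HLA-B and chr6:29723184-29723433, plus strand for HLA-F. Capitals mark the letters AANNGAAA, the core of an IRF site, or on the other strand TTTCNNTT.

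B2M: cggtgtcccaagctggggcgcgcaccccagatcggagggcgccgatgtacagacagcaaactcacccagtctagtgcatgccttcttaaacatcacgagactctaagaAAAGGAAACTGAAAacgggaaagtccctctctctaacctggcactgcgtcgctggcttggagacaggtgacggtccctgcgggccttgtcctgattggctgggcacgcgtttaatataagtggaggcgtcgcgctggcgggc
TAPBP: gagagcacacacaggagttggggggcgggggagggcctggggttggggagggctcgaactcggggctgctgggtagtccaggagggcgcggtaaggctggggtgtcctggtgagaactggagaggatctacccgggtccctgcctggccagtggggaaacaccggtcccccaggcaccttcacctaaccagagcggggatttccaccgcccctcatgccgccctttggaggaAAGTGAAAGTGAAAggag
TAP1: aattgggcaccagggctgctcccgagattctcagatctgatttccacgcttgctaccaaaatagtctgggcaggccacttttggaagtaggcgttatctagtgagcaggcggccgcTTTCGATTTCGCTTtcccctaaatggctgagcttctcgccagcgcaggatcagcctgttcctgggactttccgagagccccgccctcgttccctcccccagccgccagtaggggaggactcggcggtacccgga
TAP2: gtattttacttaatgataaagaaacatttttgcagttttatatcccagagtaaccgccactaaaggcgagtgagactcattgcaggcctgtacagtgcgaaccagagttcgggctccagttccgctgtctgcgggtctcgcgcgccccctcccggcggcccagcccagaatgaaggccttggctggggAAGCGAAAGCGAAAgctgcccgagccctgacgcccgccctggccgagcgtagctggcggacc
HLA-B: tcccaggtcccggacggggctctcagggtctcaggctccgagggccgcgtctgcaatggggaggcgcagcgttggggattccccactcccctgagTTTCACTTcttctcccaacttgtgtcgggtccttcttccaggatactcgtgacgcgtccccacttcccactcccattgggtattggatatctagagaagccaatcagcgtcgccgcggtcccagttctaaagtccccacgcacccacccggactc
HLA-F: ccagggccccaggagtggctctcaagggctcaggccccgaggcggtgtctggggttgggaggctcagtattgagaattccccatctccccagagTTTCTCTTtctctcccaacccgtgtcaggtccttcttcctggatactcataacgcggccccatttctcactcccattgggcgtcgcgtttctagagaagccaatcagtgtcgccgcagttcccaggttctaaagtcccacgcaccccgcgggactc

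The IRF letters were found in 7 of 7 member promoters, HLA-C included, and in 20.3% of all 35116 promoters of the same length. B2M, TAP1, TAP2 and TAPBP each held 2 overlapping matches, beginning at -142 and -136 in B2M, at -134 and -128 in TAP1, at -62 and -56 in TAP2 and at -18 and -12 in TAPBP, counted from the annotated start. HLA-B, HLA-C and HLA-F held 1 match each, at -155, -151 and -156. The stretches of these HLA genes are much alike in letters, so they are not independent cases. IRF sites were already known for class I, B2M and transporter genes, so the count was no test. CCAAT, the letters bound by NF-Y, stood in 5 of the 7, all but TAP2 and TAPBP, and in 32.0% of all promoters. TGACG, the core of a cyclic AMP response element, stood in 4 of the 7 (HLA-B, HLA-C, B2M and TAP2) and in 21.2% of all. GGGANTTCC, 1 form of an NF-kB site, was found in 1 of the 7, TAPBP, and in 1.59% of all. Other forms of that site were not searched, so a promoter without these letters may still hold an NF-kB site. TTCNNNGAA, a STAT site, was found in 0 of the 7 and in 6.57% of all. Both strands were searched for each. TAP2 thus shared the paired IRF letters with TAP1, B2M and TAPBP, although its expression value did not pass the test. These are matches of letters and not sites shown to be bound.

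The probe sets that list the classical heavy chain genes HLA-C and HLA-B were slightly higher in colonies. HLA-B and HLA-C products present peptides to CD8 T cells, and HLA-C is also a main ligand of inhibitory receptors on natural killer cells. Probe set 8179731 stood at 11.40, 11.34 and 11.40 in colonies, against 11.22, 11.16 and 11.19 in parent cells. The groups did not overlap, but the gap between the lowest colony and the highest parent array was small. The difference was 0.19 ± 0.04 (log2 difference ± SE, n = 3 arrays per group), a 1.14-fold rise with a 95% interval of 1.06 to 1.23 (limma, adjusted p = 0.0194). Probe sets 8124911 (0.17 ± 0.04, limma adjusted p = 0.0303) and 8178498 (0.18 ± 0.04, limma adjusted p = 0.0189) rose by similar amounts. The rise of the 3 probe sets is the least secure among the members. With the arrays shifted to a common median, the differences were 0.14 for 8124911, 0.15 for 8178498 and 0.17 for 8179731, and none passed the test (limma adjusted p from 0.0713 to 0.103).

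HLA-F is a less polymorphic class I gene whose product can reach the cell surface without peptide and is seen by natural killer cell receptors. Its probe sets, which also list HLA-B, differed by about the same amount in all 3 copies. Probe set 8177717 gave 7.85, 7.85 and 7.89 in colonies, against 7.48, 7.49 and 7.57 in parent cells. The colony arrays lay close together and above all parent arrays. The difference was 0.35 ± 0.05 (limma, adjusted p = 0.00187), a 1.27-fold rise with a 95% interval of 1.18 to 1.38. Probe set 8117760 rose by 0.38 ± 0.05 and 8179019 by 0.35 ± 0.05 (limma adjusted p = 0.00177 and adjusted p = 0.00193). Unlike the HLA-C with HLA-B probe sets, they kept their call under all 12 alternatives run.

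**Figure D1:**
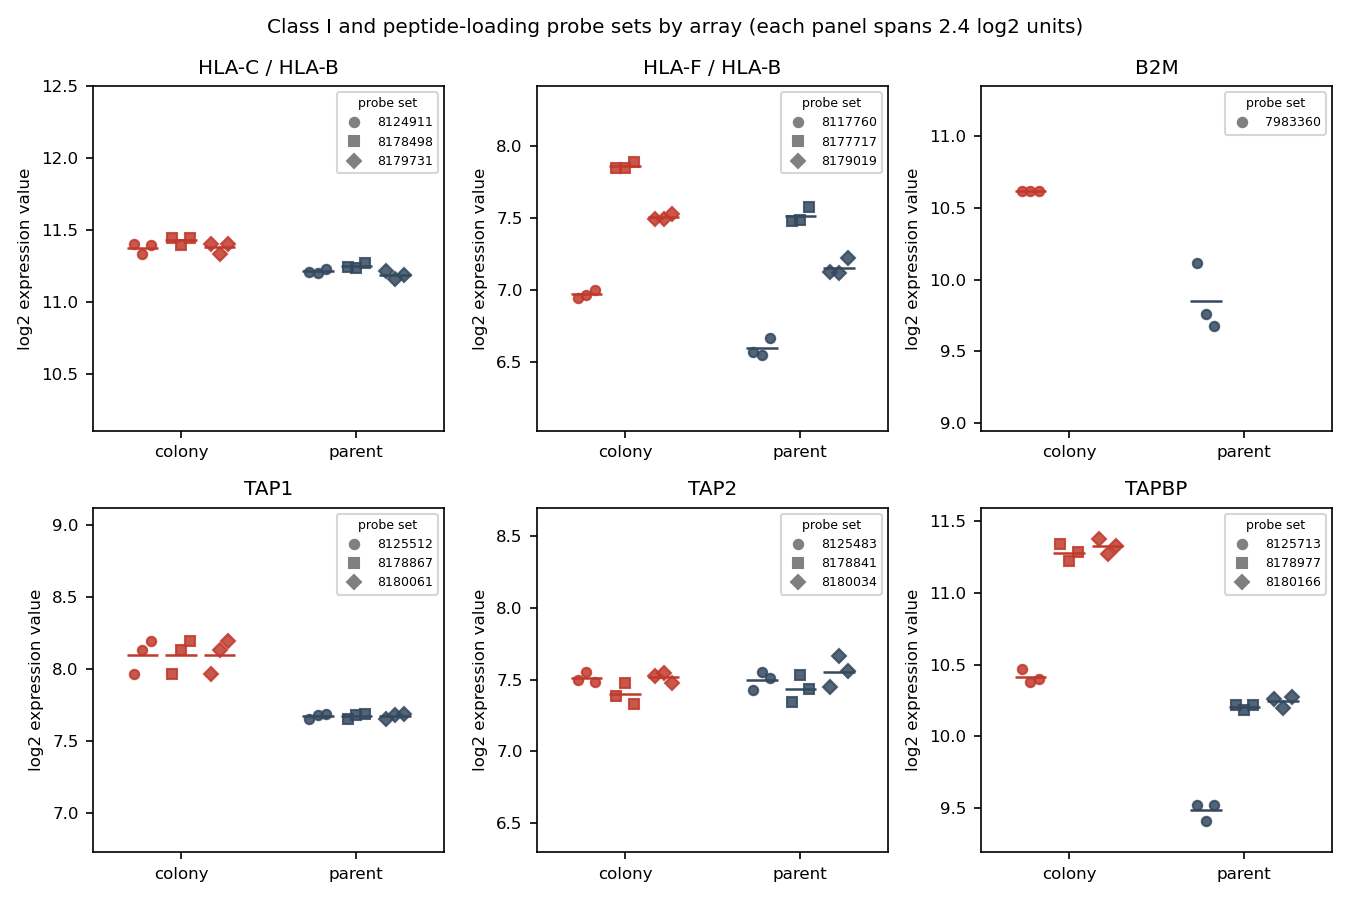
Log2 expression value of each member probe set (vertical axis) on every array, colonies in red on the left and parent cells in dark blue on the right; markers separate the probe sets of 1 symbol field and short lines are means of 3 arrays. Within each probe set the groups separate in every panel but TAP2, and B2M on the parent arrays spreads from 9.68 to 10.11.

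B2M was higher in colonies. Its product is the light chain without which class I heavy chains are not carried to the surface, and loss of B2M is a known route to resistance against T cell therapies in melanoma. Probe set 7983360 stood at 10.62 on all 3 colony arrays, against 10.11, 9.76 and 9.68 in parent cells. Parent replicate 1 was the highest of the parent arrays but still below every colony array. The difference was 0.77 ± 0.11 (limma, adjusted p = 0.00299), a 1.70-fold rise with a 95% interval of 1.40 to 2.06. Without parent replicate 1 it was 0.90. The SD was 0.000173 in colonies, against 0.23 in parent cells; 2.33% of all probe sets had a smaller colony SD and 9.95% a larger parent SD. Exactly repeated values were common in the table, since 29.1% of all probe sets gave the same value on 2 or more arrays.

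TAP1 rose and TAP2 did not pass the test, although the proteins work as a pair. The 3 TAP1 probe sets, which had the same values, stood at 7.96, 8.13 and 8.19 in colonies, against 7.66, 7.68 and 7.69 in parent cells. The parent arrays were nearly equal, and the colony arrays were more spread but all above them. The difference was 0.42 ± 0.07 (limma, adjusted p = 0.00419), a 1.34-fold rise, with a 95% interval of 0.26 to 0.58 on the log2 scale.

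For TAP2, probe set 8180034 gave 7.53, 7.55 and 7.47 in colonies, against 7.45, 7.66 and 7.56 in parent cells. The groups overlapped, as they did for both other TAP2 probe sets. The difference was -0.04 ± 0.07, with a 95% interval of -0.20 to 0.12 (limma, adjusted p = 0.727). Probe set 8178841 differed by -0.04 ± 0.07 (95% interval -0.20 to 0.12) and 8125483 by 0.01 ± 0.05 (-0.11 to 0.14). On the linear scale these intervals run at the widest from 0.868-fold to 1.10-fold, so a rise of the size seen for TAP1 lies outside them.

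TAPBP showed the largest rise among the members. Probe set 8180166 stood at 11.37, 11.27 and 11.32 in colonies, against 10.26, 10.20 and 10.28 in parent cells. Arrays of 1 group lay close together, far from those of the other. The difference was 1.08 ± 0.05 (limma, adjusted p = 2.97e-05), a 2.11-fold rise with a 95% interval of 1.94 to 2.29. Probe set 8178977 rose by 1.07 ± 0.05 and 8125713 by 0.93 ± 0.05 (limma adjusted p = 2.64e-05 and adjusted p = 6.24e-05). The first 2 of these were the only members past 2-fold, a size at which 1.88% of all probe sets were called higher. Of the 33297 probe sets, 525 had a larger positive difference than 8180166.

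TAPBP overlaps RGL2, a gene for a Ral exchange factor on the same strand, in the RefSeq annotation. RGL2 (probe set 8178955) stood at 8.59, 8.59 and 8.66 in colonies, against 7.76, 7.67 and 7.68 in parent cells, and rose by 0.91 ± 0.05 (limma, adjusted p = 4.88e-05). The size was close to that of probe set 8125713 of TAPBP (0.93). Whether transcripts of 1 of these genes reach the probes of the other was not tested.

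**Figure D2:**
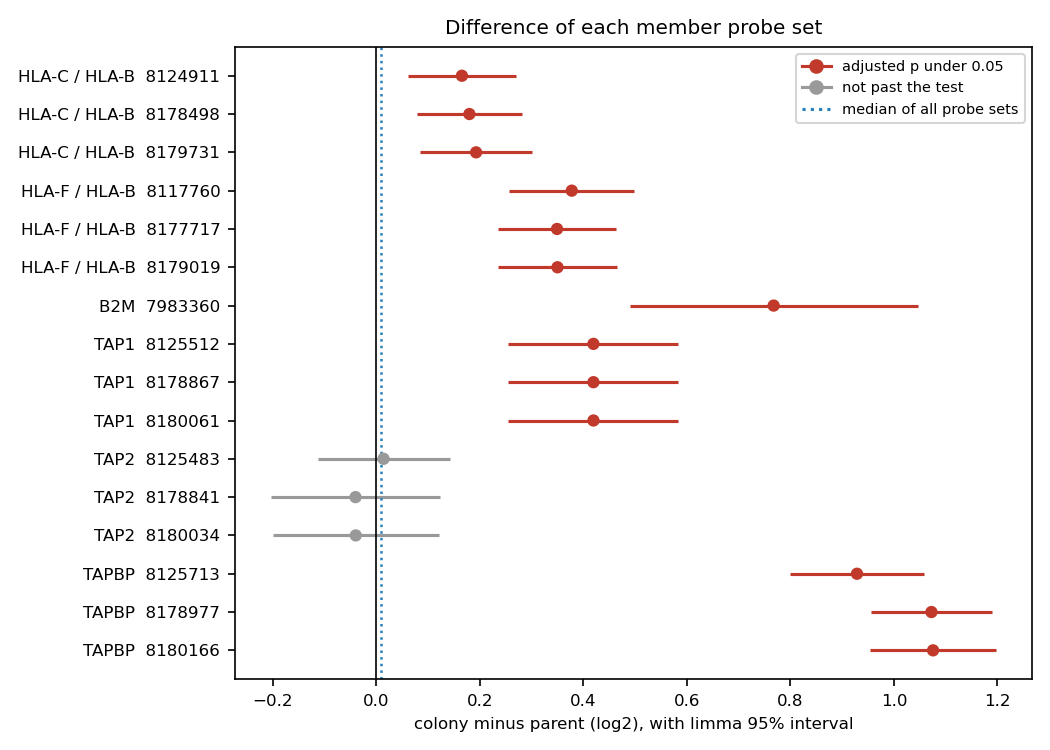
Colony minus parent difference on the log2 scale (horizontal axis) of each of the 16 member probe sets, with the limma 95% interval; red passed the test, grey did not, and the dotted line is the median of all probe sets (0.01). TAPBP lies near 1, B2M at 0.77 with the widest interval, and the 3 TAP2 intervals include 0.

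To set the members' differences against each other, each symbol field's probe sets were averaged per array and 1 field subtracted from another on the same array, for all 15 pairs of fields. In 13 pairs the colony arrays did not overlap the parent arrays, which gives an exact permutation p of 0.1, the smallest that 3 arrays against 3 allow (0.115 adjusted over the pairs). No pair could therefore pass 0.05. The pairs reuse the member values tested above, and the share of other probe set pairs without overlap was not computed. Among single probe sets the groups were apart for 40.6%. TAP1 exceeded TAP2 by 0.50, 0.60 and 0.76 in colonies, against 0.25, 0.10 and 0.19 in parent cells, so the gap was wider in colonies by 0.44. The TAPBP minus B2M value was higher in colonies by 0.26, and the TAPBP minus TAP1 value by 0.61. The 2 pairs whose groups overlapped were B2M with TAP1, at 0.35 (exact permutation p = 0.2), and TAP1 with the HLA-F with HLA-B field, at 0.06 (exact permutation p = 0.5).

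Genes that feed, help or control the class I pathway moved in both directions. Of 68 genes in 6 lists 64 were measured, with 14 higher, 17 lower and 33 not called (21.9% higher and 26.6% lower, with a median difference of 0.02). Among all probe sets 14.4% were higher and 15.3% lower, and among those above the median expression, where 49 of the 64 lie, 24.1% were higher and 27% lower. The lists were chosen for their known roles and with earlier results of these data known.

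Proteasome subunits did not move together. PSMB8 and PSMB9, catalytic subunits of the immunoproteasome, rose by 0.54 ± 0.08 and 0.50 ± 0.09 (limma adjusted p = 0.00334 and adjusted p = 0.00505), while PSMB10, their partner, differed by 0.03 ± 0.06 (limma adjusted p = 0.726). PSMB8 stood at 7.08, 7.10 and 7.24 in colonies, against 6.73, 6.46 and 6.60 in parent cells. The colony arrays all lay higher. PSMB5, the standard subunit that PSMB8 replaces, stood at 9.99, 9.96 and 10.08 in colonies, against 10.89, 10.94 and 10.91 in parent cells, and fell by 0.91 on the log2 scale (SE 0.05, limma adjusted p = 5.45e-05). The list of 9 genes gave 3 higher, 3 lower and 3 not called, with a median of -0.04. The other gene that rose was PSME1 (0.32), a part of the PA28 activator, and PSMB6 (-0.29) and PSME3 (-0.32) were the others that fell.

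Helpers of peptide trimming and loading showed no common direction. The 8 measured genes gave 1 higher, 3 lower and 4 not called, with a median of 0.06; PDIA3 was not analysed here. CALR, encoding the chaperone calreticulin that sits in the loading complex with tapasin, stood at 10.47, 10.49 and 10.44 in colonies, against 11.03, 10.91 and 10.91 in parent cells. It fell by 0.48 on the log2 scale (SE 0.05, limma adjusted p = 0.000657), so it moved opposite to TAPBP. CANX (calnexin, which folds new heavy chains) and UGGT1 (which sends poorly loaded molecules back for another round) fell by 0.18 and 0.19 (limma adjusted p = 0.0315 and adjusted p = 0.0295). HSPA5, the chaperone BiP, rose by 0.19 (limma adjusted p = 0.0198). CANX lost its call under 6, UGGT1 under 7 and HSPA5 under 5 of 13 alternatives. The trimming enzymes ERAP1 and ERAP2 differed by 0.16 ± 0.08 and 0.24 ± 0.08 and did not pass (limma adjusted p = 0.179 and adjusted p = 0.0849). Neither did TAPBPL, a relative of tapasin, at 0.11 ± 0.05 (limma adjusted p = 0.177).

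Regulators of class I transcription also went both ways, with 5 higher, 3 lower and 5 not past the test among 13 measured genes and a median of 0.07; STAT2 and ATF1 were not analysed here. NLRC5, the coactivator of class I promoters, stood at 6.34, 6.42 and 6.42 in colonies, against 6.12, 6.10 and 6.12 in parent cells. The colony arrays lay just above and the parent arrays just below the median expression of 6.31. NLRC5 rose by 0.28 ± 0.04 (limma, adjusted p = 0.00351). RFX5, which recruits NLRC5 to the promoter, stood at 9.18, 9.12 and 9.05 in colonies, against 8.17, 8.05 and 8.12 in parent cells, and rose by 0.999 ± 0.0569 (limma, adjusted p = 6.03e-05). RFXANK, its partner in the RFX complex, fell by 0.49 and RFXAP, the other partner, differed by -0.02. IRF2 rose by 0.70 ± 0.05, whereas IRF1, the interferon-induced activator, differed by -0.08 ± 0.10 and did not pass (limma, adjusted p = 0.652). NFKB1 fell by 0.66 and RELA, the other subunit of the same NF-kB dimer, rose by 0.23. CREB1, which binds the cyclic AMP element, rose by 0.25, and NFYC, a subunit of NF-Y, fell by 0.39. The other NF-Y subunits, NFYA at -0.14 and NFYB at 0.09, did not pass (limma adjusted p = 0.0746 and adjusted p = 0.383).

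**Figure D3:**
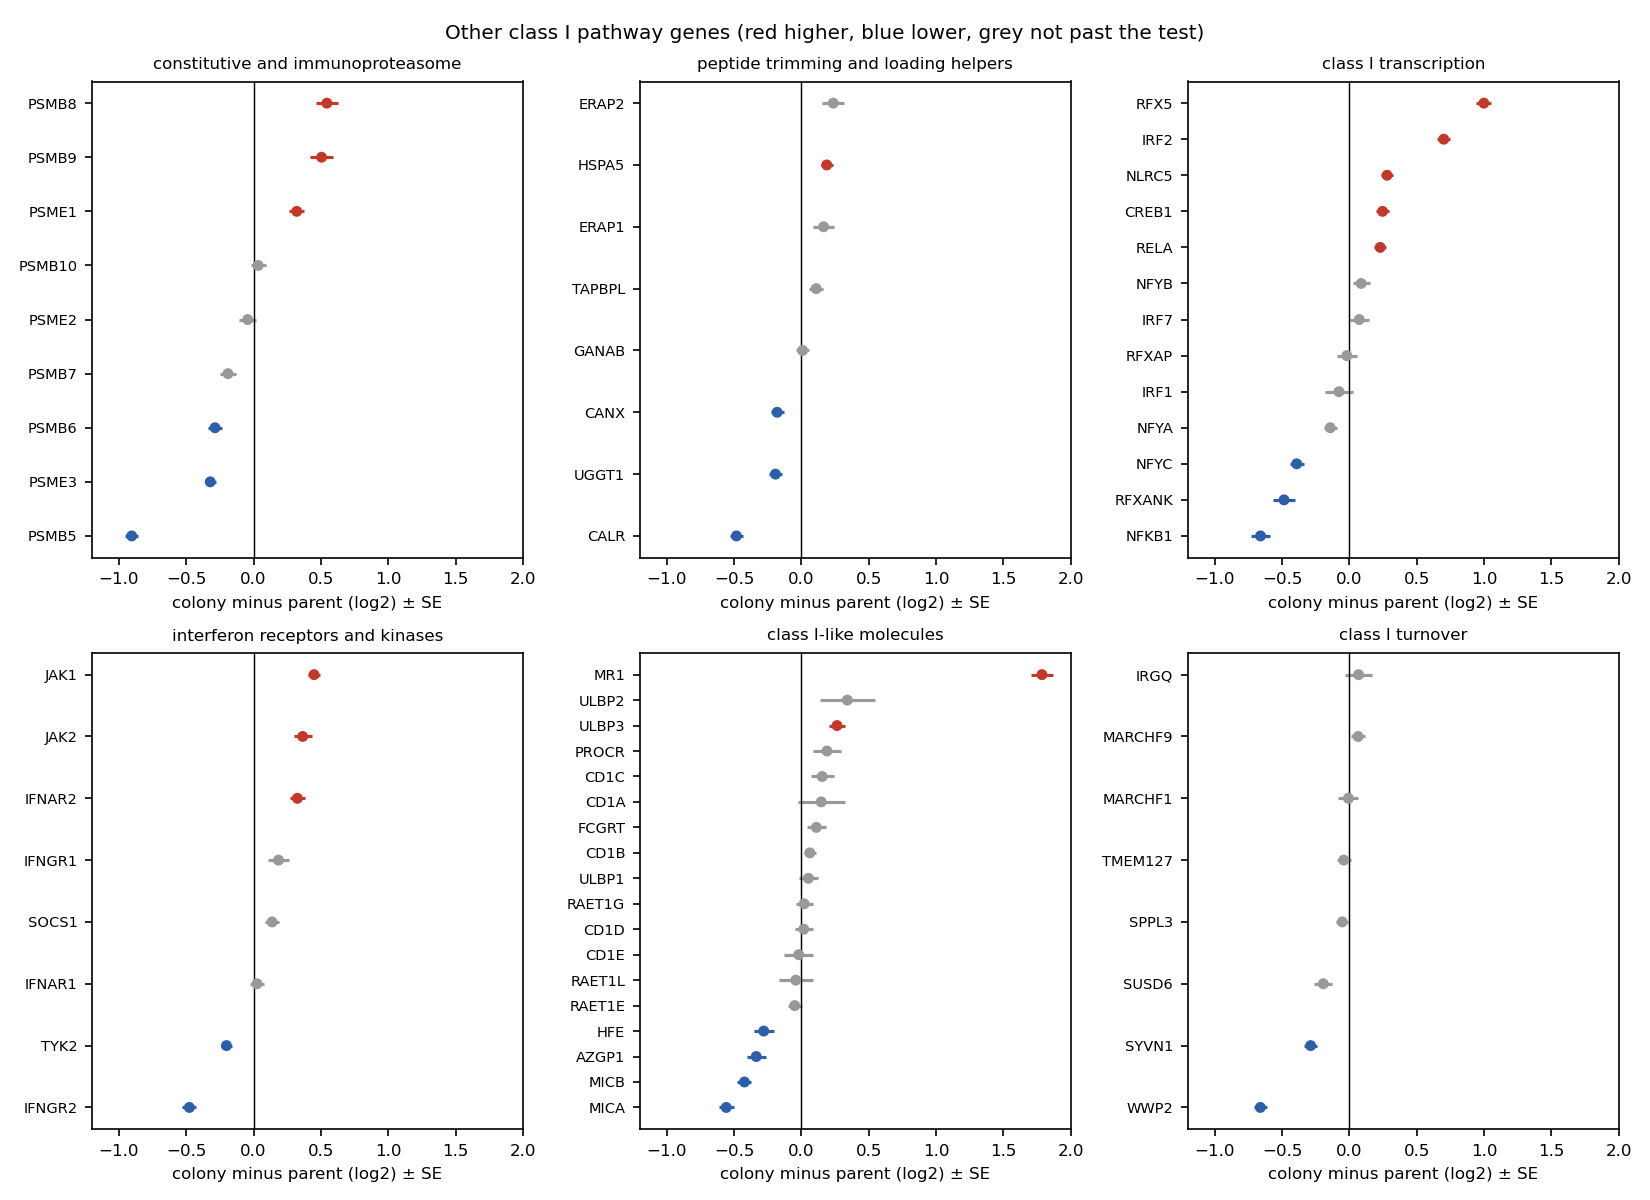
Colony minus parent difference on the log2 scale (horizontal axis) of the measured genes of the 6 pathway lists, 1 panel per list, with bars for ± SE, and red for higher, blue for lower and grey for not past the test. Genes fall on both sides of 0 in every list, and MR1 lies farthest out at 1.79.

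Interferon receptor and kinase genes gave 3 higher, 2 lower and 3 not past the test among 8, with a median of 0.16. JAK1 rose by 0.45 ± 0.05, JAK2 by 0.36 ± 0.07 and IFNAR2 by 0.32 ± 0.05. IFNGR2, a chain of the receptor for interferon gamma, fell by 0.48, and TYK2 fell by 0.20. The class I turnover list had 0 higher, 2 lower and 6 not past the test among 8 genes, with a median of -0.05. The 2 were the ubiquitin ligase genes WWP2 (-0.66) and SYVN1 (-0.29).

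The 18 genes of class I-like molecules gave 2 higher, 4 lower and 12 not called, with a median of 0.04, and 9 of the 18 lay below the median expression. MR1, whose product pairs with beta-2-microglobulin and shows vitamin B metabolites to MAIT cells, changed most. It stood at 9.45, 9.55 and 9.63 in colonies, against 7.85, 7.61 and 7.81 in parent cells. The groups lay far apart, at 1.79 ± 0.08 or 3.45-fold (limma, adjusted p = 2.84e-05). MICA, a stress ligand of the natural killer receptor NKG2D that does not pair with beta-2-microglobulin, stood at 9.03, 9.05 and 9.10 in colonies, against 9.71, 9.58 and 9.56 in parent cells. It fell by 0.56 on the log2 scale (SE 0.06, limma adjusted p = 0.000585), and its relative MICB fell by 0.42. HFE, the iron-sensing class I-like gene, fell by 0.28 and AZGP1, encoding a secreted class I-like protein, by 0.34. ULBP3, another NKG2D ligand, rose by 0.26. HFE lost its call under 5 of 12 and ULBP3 under 5 of 13 alternatives, and TYK2 under 2 of 13.

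The members were also set beside the genes around them on the chromosome. For each member gene with single-symbol probe sets, the 50 nearest genes above the median expression in RefSeq order were taken, 25 on each side, leaving out the members and the genes of the pathway lists. Around B2M on chromosome 15 the median neighbour differed by -0.09, with 17 higher and 19 lower, and B2M lay 0.85 above that median with 2 neighbours above it. The nearest counted genes on either side of B2M, SPG11 and SHF, were also higher, at 0.53 and 0.74. EIF3J, 1 counted place beyond SPG11, was lower at -1.11. Genes that were not counted may lie between these and B2M. Around TAPBP on chromosome 6 the median was 0.13, with 17 higher and 10 lower. No neighbour lay above TAPBP as read by its brightest probe set, 8180166. CUTA, at 0.933, had the largest rise among these neighbours. Probe set 8125713 of TAPBP, at 0.929, lay just below CUTA, so the place of TAPBP depends on the probe set. TAP1 lay 0.38 above its neighbours' median of 0.04 and 6 of these neighbours exceeded it. PSMB8 and PSMB9, list genes that lie on either side of TAP1 and were left out of that count, differed by 0.54 and 0.50, also more than TAP1 (0.42). TAP2 lay 0.08 below the same median with 31 above it. Of the counted genes nearest to TAPBP other than RGL2, ZBTB22 differed by 0.15, DAXX by -0.02, PFDN6 by -0.22 and WDR46 by -0.71.

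**Figure D4:**
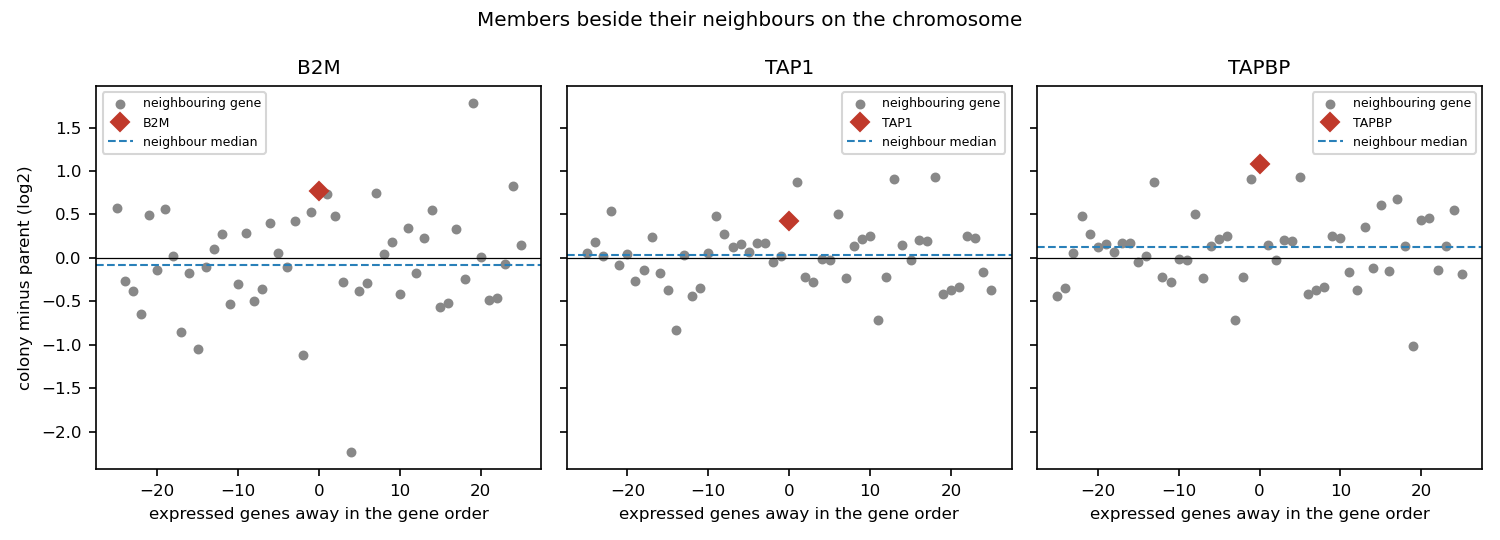
Colony minus parent difference on the log2 scale (vertical axis) of the 50 neighbours counted for each member gene by place in the gene order (horizontal axis, 0 is the member), for B2M, TAP1 and TAPBP, with the neighbours' median as a dashed line. B2M lies 0.85 and TAPBP (brightest probe set, 8180166) 0.95 above the median of their neighbours, and TAP1 0.38.

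The genes whose profile over the 6 arrays was most like that of B2M were sought by the root mean square difference of parent-centred log2 values, among 11179 genes. They were TAF4B (0.0414), FBXL20 (0.0486), KIF20B (0.0487), FRG1BP (0.0549) and KLHL5 (0.0555). As in B2M, parent replicate 1 was the highest parent array in each of the 5, which the choice by likeness over these arrays favours. TAF4B, for one, stood at 6.99, 6.96 and 6.97 in colonies, against 6.52, 6.15 and 6.11 in parent cells.

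Cell identity was read from 4 marker lists. Of 8 melanocyte lineage markers 7 were measured and 6 lay above the median expression, all but TYRP1. By the test 3 were higher (PMEL, SOX10 and S100B), 1 lower (MLANA) and 3 not called (MITF, TYR and TYRP1). PMEL stood at 12.9 in colonies against 12.5 in parent cells. MLANA stood at 9.50 ± 0.03 in colonies, against 10.94 ± 0.03 in parent cells (SD, n = 3 each). Of 9 measured leukocyte markers 0 passed the test and 8 lay below the median expression. The other one, TYROBP, stood at 7.93 in colonies and 7.86 in parent cells. The mean level of the 9 per array ran from 5.29 to 5.31 in colonies, against 5.20 to 5.31 in parent cells, and PTPRC, the pan-leukocyte CD45 gene, lay at 3.71 in colonies and 3.67 in parent cells. Of 6 fibroblast markers 0 rose and 2 fell (PDGFRA at -0.57 and LUM at -0.34), and of 6 endothelial markers 0 rose and 0 fell. Below the median expression lay 3 of the 6 fibroblast and 5 of the 6 endothelial markers. DCT was not analysed here. Arrays of 1 group correlated at 0.995 to 0.997 over all probe sets and arrays of different groups at 0.978 to 0.980, and array medians ran from 6.25 to 6.34. The design text speaks of triplicate samples with RNA isolated separately but does not say whether the cultures or colonies were independent, so a p-value here speaks only for the spread among these 6 samples, which may be technical. No labels gave a scan date or batch, and a batch that followed the groups cannot be told apart from the treatment.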

How the data were processed

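RNA from 3 IDTC colony and 3 parent samples of WM164 was measured on Affymetrix whole-transcript arrays. The deposited table gives 1 log2 value per probe set and array. The authors used Affymetrix Expression Console, per the submitters' processing notes. Its version, summary method and normalization were not stated in the sources used here. The values were used as deposited. Genes were named from the platform annotation: 19460 probe sets had 1 symbol, 1754 several and 12083 none.

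All 33297 probe sets were fitted with limma 3.58.1 in R 4.3.3 (lmFit and eBayes, group only, two-sided, Benjamini-Hochberg over all, threshold 0.05), after a check on simulated data. Pathway and marker genes entered by their single-symbol probe set with the highest mean. Named were all members, the 2 largest called genes of each pathway list, a set of known pathway genes whatever their values, and the 5 genes most like B2M. Other genes were named after their values were seen: further called or paired list genes, the overlapping RGL2 and the nearest or largest neighbours. The pseudogene HLA-L was also added after the data were seen. Members and lists were chosen with earlier results of these data known. Alternatives were a shift to a common median, quantile normalization, filters on expression and annotation, trend and robust eBayes, a replicate block, each array left out, and subtraction of the neighbours' median. Pairs were compared by two-sided exact permutation tests (scipy 1.17.1). Replicate numbers did not pair the samples: deviations of same-numbered arrays correlated at 0.052, -0.057 and 0.056. Promoters came from RefSeq (GRCh38.p14).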

Additional observations from a re-analysis of the deposited data

How the results depend on the processing

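The member count stayed at 10 to 13 higher and 0 lower under the alternatives that tested all 16 probe sets. It was 3 higher of 4 tested when only the brightest probe set with 1 gene symbol was kept per gene, which leaves out the HLA probe sets and the repeated copies. Leaving out 1 array in turn gave 10 to 13 members higher and 0 lower, 12 to 16 pathway genes higher and 13 to 16 lower, and 3921 to 4845 probe sets higher and 4299 to 5196 lower over the whole table. Among the members, all calls that were lost belonged to the 3 probe sets that list HLA-C with HLA-B: none of the 3 passed with arrays shifted to a common median, with a replicate block, or without parent replicate 2, colony replicate 1 or colony replicate 3, and 1 passed without parent replicate 3. The cause was not tested. With the replicate block 10 members were higher and 0 lower, 13 pathway genes were higher and 14 lower, and 4332 probe sets were higher and 4526 lower. No other member changed its call: B2M ranged from 0.68 to 0.90, TAP1 from 0.37 to 0.49, TAPBP from 0.89 to 1.13 over its probe sets, and TAP2 from -0.09 to 0.04. No value that passed the test changed sign. Signal over background was not analysed here, so how far it limits dim genes such as NLRC5 is unknown.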

Other observations

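Each catalytic subunit of the immunoproteasome replaces 1 standard subunit in the same place, so the pairs were subtracted on each array, a comparison chosen after the data were seen. PSMB8 minus PSMB5 was -2.91, -2.85 and -2.84 in colonies, against -4.16, -4.48 and -4.31 in parent cells. The gap thus closed by 1.45 on the log2 scale in colonies. PSMB5 fell by 0.91 and PSMB8 rose by 0.54, so the larger part came from PSMB5. PSMB9 minus PSMB6 was higher in colonies by 0.79 and PSMB10 minus PSMB7 by 0.22. Neither gene of this last pair passed the test. PSMB10 differed by 0.03 and PSMB7 by -0.19 (limma adjusted p = 0.726 and adjusted p = 0.0574). In all 3 pairs every colony array lay above every parent array, with an exact permutation p of 0.1, the smallest that 3 arrays against 3 allow. The share of other gene pairs set apart in this way was not computed.

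HLA-L, a class I pseudogene near the class I genes, was looked up for comparison, a choice made after the data were seen. Its 2 probe sets had identical values of 6.50, 6.43 and 6.51 in colonies, against 6.22, 6.37 and 6.50 in parent cells. The groups overlapped, and the difference was 0.12 ± 0.08 with a 95% interval of -0.07 to 0.31 (limma, adjusted p = 0.336).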
